A study of Mus musculus with 2 samples.

Results

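Itga1-positive Ncr1-positive cells made up 391 of the 13212 cells kept from 2 libraries of cells from CT26 tumours. They were 202 of 6642 kept cells in the mock library and 189 of 6570 in the PTIR1 library. CT26 is a mouse colon carcinoma line, and the tumours grew in BALB/c mice, the inbred strain in which the line arose. The mock library came from mock tumours, and the PTIR1 library from tumours expressing PTIR1, which the series title links to suppression of the immunoproteasome. Each library was made with droplet 3' single-cell RNA sequencing, which counts transcripts by their unique molecular identifiers (UMIs). With 1 library per group, no difference between PTIR1 and mock could be tested, and every 95% interval below covers counting error only. How many animals a library pooled, their age and how cells were sorted were not given in the sources used here.

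Members were chosen by their own counts. A kept barcode had at least 200 genes, at least 1000 UMIs and at most 10% mitochondrial UMIs. A member had at least 1 UMI of Ncr1, which encodes the activating receptor NKp46, and at least 1 UMI of Itga1, which encodes the integrin chain CD49a. It had no UMI of the T cell genes Cd3e and Cd8b1, and at most 1 UMI of the macrophage genes Csf1r and Adgre1 together. These 6 genes, depth and gene number are therefore not results. The cells compared with the members passed the same gate except that Itga1 was 0, and they are called Itga1-zero cells, 513 mock and 716 PTIR1 cells. Before the last exclusions 375 mock and 387 PTIR1 cells carried both Ncr1 and Itga1. Csf1r or Adgre1 removed 143 and 191 of them, Cd3e 55 and 32, and Cd8b1 35 and 12, with some removed on several counts. The libraries shared 30 barcodes, none of them a member.

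NKp46 marks natural killer (NK) cells and the related type 1 innate lymphoid cells (ILC1) of mice. NK cells circulate and are classically defined by the transcription factor Eomes and by Itga2, the integrin chain CD49b. ILC1 stay in tissues, bind collagen through CD49a, often lack Eomes and depend on the residency factor Zfp683 (Hobit) in several organs. TGF-beta can give NK cells in tumours some of these features, CD49a among them. Trdc is the constant segment of the T cell receptor delta locus. It is known to be transcribed from the unrearranged locus in NK cells, so it marks gamma delta T cells only together with the CD3 chains.

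The 6 gate genes split cells that differed in depth. The median was 12643 UMIs per mock member and 14539 per PTIR1 member, against 4777 and 6924 per Itga1-zero cell. Mock members ranged from 1028 to 136808 UMIs and PTIR1 members from 1021 to 67753. The deposited totals were 95166611 and 98540561 UMIs. A cell with few UMIs can miss Itga1, so some Itga1-zero cells may carry the transcript undetected. Near the threshold, 76 mock and 93 PTIR1 members had exactly 1 Itga1 UMI, and 67 and 31 had 4 or more. As a description, members made up 28.3% of gated Ncr1-positive mock cells (24.98% to 31.7%, exact binomial) and 20.9% of those with PTIR1 (18.3% to 23.7%). With each cell thinned to 1000 UMIs, the shares were 6.43% (4.75% to 8.49%) and 3.31% (2.25% to 4.70%). The share was lower in the PTIR1 library by either count.

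Itga1 RNA was not limited to these cells. An Itga1 UMI was found in 35.6% of mock and 36.2% of PTIR1 macrophages (cells with Csf1r and Adgre1 and without Ncr1, Cd3e and Cd79a). It was found in 32.2% of 118 mock and 7.14% of 28 PTIR1 CD8 T cells (cells with Cd3e and Cd8b1 and without Ncr1). In B cells, taken as cells with Cd79a and Ms4a1 and without Ncr1, Cd3e, Csf1r and Adgre1, the share was 0.575% and 0.459%. B cells serve below as the background for free RNA, with medians of 4350.5 and 4631 UMIs. All 12 of the macrophage markers looked at were above 0 in the members of both libraries, at a sum of 5314 UMIs scaled to an equal total per gate and library (CPM) in mock and 5269 in PTIR1 members, against 4247 and 5014 in Itga1-zero cells. The sum per member ran from 248.3 to 69988 CPM in the mock library around a median of 2308. In the PTIR1 library it ran from 298.6 to 31344 around 2498. The part of macrophage RNA in the results was not tested.

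Most of the ILC1 genes named here were found in a minority of members, while Eomes, Gzma and Prf1 were found in most. Zfp683 had no UMI in any member, which allows up to 1.49% of 202 mock and 1.59% of 189 PTIR1 members with a UMI. This limits detection only, since a cell that expresses a low transcript can yield no UMI. Il7r, the interleukin 7 receptor of most innate lymphoid cells, was found in 9.90% of mock and 12.5% of Itga1-zero mock cells, and in 7.94% and 6.56% in the PTIR1 library, against 2.87% and 3.52% of B cells. Cxcr6, a chemokine receptor of resident lymphocytes, was found in 8.42% of mock and 8.47% of PTIR1 members. Itgae, the CD103 chain, was found in 0.990% and 5.82%. Tnfsf10, the death ligand TRAIL that marks liver ILC1, was found in 30.7% and 19.6%, and Inpp4b, a lipid phosphatase high in ILC1, in 47.5% and 50.8%. Inpp4b was also higher in members than in Itga1-zero cells, as given below with the other residency genes. Eomes, the granule proteases and perforin of NK cells were instead found in most members. A UMI of Prf1, perforin, was present in 89.6% of mock and 94.7% of PTIR1 members, and in 6.32% and 9.19% of B cells. Gzma was present in 86.1% and 93.7%, with a background of 32.5% and 38.9% in B cells. The cells are therefore called by their gate here, and no other type name is given.

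**Figure D1:**
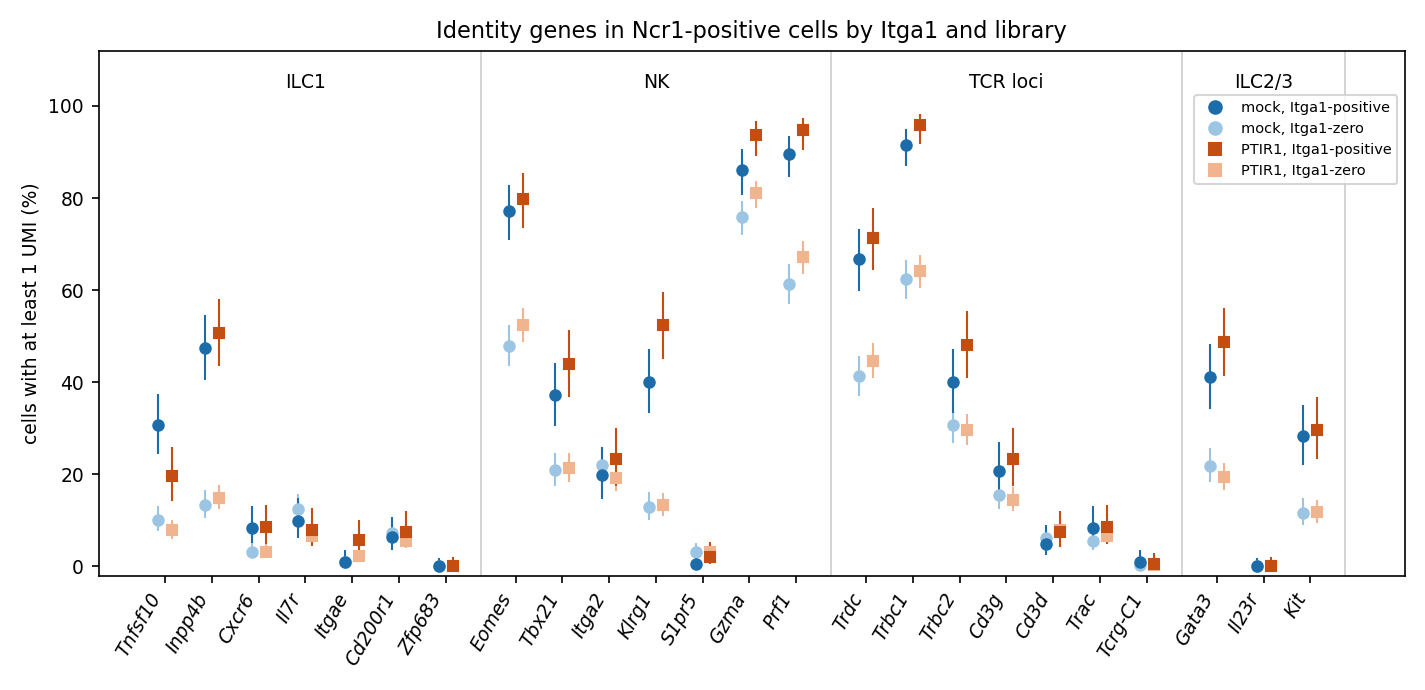
Share of cells with at least 1 UMI (%) for genes of ILC1, NK cells, T cell receptor (TCR) loci and ILC2 or ILC3, in Itga1-positive and Itga1-zero Ncr1-positive cells of the mock and PTIR1 libraries, unthinned; bars are exact 95% binomial intervals. Eomes, Gzma, Prf1 and Trbc1 lie above 77% in the members of both libraries, while Zfp683 and Il23r lie at 0.

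Eomes was found in most members. Its level was 247 CPM in mock members (229.7 to 266, exact Poisson interval) and 231 in PTIR1 members (215 to 248), against 209 and 191 in Itga1-zero cells. An Eomes UMI was present in 77.2% of mock and 79.9% of PTIR1 members, in 47.95% and 52.4% of Itga1-zero cells, and in 1.15% and 1.38% of B cells. At 1000 UMIs a cell the shares were 26.2% and 21.2% in members and 18.7% and 15.8% in Itga1-zero cells. Members lay above Itga1-zero cells in both libraries. The gate difference was tested with edgeR's quasi-likelihood test on UMIs summed per library and gate, with the library as a block and Benjamini-Hochberg adjustment over 12157 genes. It rests on 4 sums with 1 residual degree of freedom. Eomes was higher by a log2 ratio of 0.32 (SE 0.077, adjusted p = 0.0113). When both gates also required a UMI of Klrd1, the NK receptor chain CD94, the log2 ratio was -0.20 and was not called, so the direction of Eomes was not stable. With Itga1-zero cells drawn to the depth of the members it was 0.14 and was not called, and it was not called with DESeq2, without the library block, with a mitochondrial limit of 5% or after thinning either.

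Itga2 was low in the members and lower than in Itga1-zero cells. Its level was 19.98 CPM in mock members (15.2 to 25.7) and 20.2 in PTIR1 members (15.6 to 25.8). In Itga1-zero cells it was 40.0 and 28.8. The members lay below the Itga1-zero cells in both libraries. The log2 ratio was -0.69 (SE 0.17, adjusted p = 0.0103), and among cells with Klrd1 it was -1.24, again called. It was not called with DESeq2, without the library block, or after depth matching or thinning. Despite this, an Itga2 UMI was found in 19.8% of mock and 23.3% of PTIR1 members, against 22.0% and 19.3% of the shallower Itga1-zero cells. At 1000 UMIs the shares were 2.48% and 2.65% against 5.65% and 3.49%, and B cells had 0.287% and 0.459% unthinned. Itga1 (chr13:114953096-115101964, minus strand, mm10) and Itga2 (chr13:114833081-114932100, minus strand) are neighbours on one strand in GENCODE vM21.

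Trdc was found in both gates at like levels. It stood at 171 CPM in mock members (157 to 187) and 227 in PTIR1 members (211 to 244), against 153 and 197 in Itga1-zero cells. The log2 ratio was 0.24 (SE 0.080) and did not pass the test (adjusted p = 0.0506). It was -0.28 among cells with Klrd1, and it was called as higher when the T cell, macrophage, Itga1 or doublet settings were made stricter. A Trdc UMI was present in 66.8% of mock and 71.4% of PTIR1 members and in 41.3% and 44.7% of Itga1-zero cells. At 1000 UMIs a cell the shares were 14.9% and 12.7% in members and 12.3% and 17.3% in Itga1-zero cells, so the order differed between the libraries. Among B cells 0.862% and 2.14% had a Trdc UMI, and among CD8 T cells 0 of 118 and 1 of 28.

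Eomes, Itga2 and Trdc were read together in each member. The most frequent state was Eomes and Trdc without Itga2, in 95 mock members (47.0%) and 92 PTIR1 members (48.7%). All 3 genes were seen in 31 mock (15.3%) and 29 PTIR1 members (15.3%). None of the 3 was seen in 36 mock (17.8%) and 21 PTIR1 members (11.1%). Itga2 without Eomes, with or without Trdc, was seen in 4 mock and 9 PTIR1 members.

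Members held constant-segment transcripts of the TCR beta and delta loci but little Trac and Cd3d. Trbc1, a constant segment of the TCR beta locus, was found in 91.6% of mock and 95.8% of PTIR1 members, at 694 and 736 CPM, against 7.76% and 7.50% of B cells, and Trbc2 in 40.1% and 48.1%. Trac, the alpha constant segment, was found in 8.42% and 8.47% of members at 6.33 and 5.91 CPM, against 91.5% of mock and 89.3% of PTIR1 CD8 T cells at 661 and 709 CPM. Cd3d was found in 4.95% and 7.41% of members and in 92.4% and 67.9% of CD8 T cells, while B cells had 4.89% and 2.45%. Cd3g was found in 20.8% and 23.3% of members, above the 7.47% and 2.30% of B cells. Of 135 members with Trdc in each library, 8 mock and 10 PTIR1 members had Cd3d, and 28 mock and 36 PTIR1 members had Cd3g. Of the gamma constant segments, Tcrg-C4 was found in 9.90% and 5.82% of members and Tcrg-C1 in 0.990% and 0.529%. The gate set Cd3e, of the same receptor complex as Cd3d and Cd3g, to 0. Cells with Cd3e and Trdc and without Ncr1, Cd8b1 and Trac were 8 mock and 3 PTIR1 cells, too few for a comparison.

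Across all genes the gates differed widely, and the cells also differed in Ncr1. The median was 9.5 Ncr1 UMIs per mock and 10 per PTIR1 member, against 2 per Itga1-zero cell in each library. With at least 2 Ncr1 UMIs in both gates, a setting added after the data were seen, 193 genes were called higher and 205 lower. The main calls were made without that setting. Of 12157 genes tested, 1138 were higher in Itga1-positive cells (9.36%) and 1457 lower (12%), with a median log2 ratio of -0.0099, and -0.0057 in the comparison of cells with Klrd1 below. The 15 genes ranked first among the lower ones included the mast cell proteases Cpa3, Cma1, Tpsab1, Tpsb2 and Mcpt4. The mast cell marker list summed to 110.2 CPM in mock and 24.3 in PTIR1 members, against 1235 and 244.5 in Itga1-zero cells, and 7 of its 8 genes tested were lower. The fibroblast list summed to 34.3 and 145.3 CPM against 246.6 and 625.2, and the B cell list to 83.6 and 287.9 against 415.8 and 525.5. These 3 sums were higher in Itga1-zero cells of both libraries, unlike the macrophage sums above, and the neutrophil list summed to 270.4 and 95.2 CPM in members against 155.7 and 997.6. Klrd1 was found in 62.4% and 62.4% of them and in 89.6% and 91.5% of members. A comparison restricted to cells with Klrd1 was added after the data were seen. It held 181 mock and 173 PTIR1 members against 320 and 447 Itga1-zero cells, whose medians were still shallower, at 6854.5 and 9081 UMIs against 14039 and 14981. In it 239 of 11445 genes were higher (2.09%) and 242 lower (2.11%). Of these, 206 and 186 were called in the same direction over all gated cells. DESeq2 called 212 higher and 386 lower genes over all gated cells. Among cells with Klrd1, the mast cell list summed to 107.9 CPM in mock and 19.8 in PTIR1 members, against 399.2 and 36.1 in Itga1-zero cells. The fibroblast list summed to 35.4 and 107.3 against 43.7 and 300.6. The B cell list summed to 56.1 and 289.3 against 218.0 and 136.6, so its order turned in the PTIR1 library. Genes are named below as higher or lower in both comparisons where both tests called them.

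The first 5 of the 15 genes ranked higher were granzymes of 1 gene cluster (the rank uses the end of the interval nearest to no difference). Granzymes are serine proteases of cytotoxic granules. Gzmc stood at 1888 CPM in mock and 3361 in PTIR1 members, against 214 and 790.0 in Itga1-zero cells. Members were higher in both libraries, with a log2 ratio of 2.65 (SE 0.16, adjusted p = 5.42e-07), or 6.29-fold. Gzmd stood at 899 and 1608 CPM against 43.5 and 191. Its log2 ratio was 3.70 (SE 0.20, adjusted p = 2.09e-07). Gzme, Gzmf and Gzmg had log2 ratios of 3.49, 3.23 and 2.93, all called. In the mock and PTIR1 cells taken alone, the log2 ratio was 4.37 and 3.08 for Gzmd and 4.12 and 2.53 for Gzmg. Without the library block Gzmc, Gzmf and Gzmg were not called. Among cells with Klrd1 the 5 ratios lay between 2.14 and 3.21, all called. The granzymes that all NK cells are known for moved less. Gzmb stood at 2189 and 2761 CPM against 2052 and 1928, a log2 ratio of 0.36 (adjusted p = 0.00445) that was -0.15 and not called among cells with Klrd1. Gzma had 0.62 and 0.10, and Prf1 0.74 and 0.23, in the same order, and neither was called among cells with Klrd1. Igflr1, a membrane receptor, also ranked among the 15, with 2.71 and 2.44, and the mock and PTIR1 cells alone gave 3.25 and 2.04. Gzmc to Gzmg are close paralogs, so the authors' read assignment could have moved or dropped counts between them, and their single values are uncertain.

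The promoters of these genes are shown because the cluster moved together while its neighbour Gzmb did not keep its direction. All 6 genes lie on the minus strand of chromosome 14, from Gzme at chr14:56117626-56120625 to Gzmb at chr14:56258838-56262260. Each sequence runs from 250 bases before to 50 after the RefSeq start of the gene, 5′ to 3′, in build GRCm38.p6. Capitals mark a match to the letters TGTGGTT or their reverse complement AACCACA, the core that Runx factors bind. The Gzmb window is chr14:56262285-56262584, the Gzmc window chr14:56234608-56234907 and the Gzmd window chr14:56132544-56132843.
Gzmb: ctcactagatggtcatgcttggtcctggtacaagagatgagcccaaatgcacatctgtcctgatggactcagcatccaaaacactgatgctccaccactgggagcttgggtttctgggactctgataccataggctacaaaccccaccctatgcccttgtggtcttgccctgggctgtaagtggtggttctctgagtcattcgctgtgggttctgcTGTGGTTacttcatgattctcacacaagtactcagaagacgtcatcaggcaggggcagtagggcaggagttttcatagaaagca
Gzmc: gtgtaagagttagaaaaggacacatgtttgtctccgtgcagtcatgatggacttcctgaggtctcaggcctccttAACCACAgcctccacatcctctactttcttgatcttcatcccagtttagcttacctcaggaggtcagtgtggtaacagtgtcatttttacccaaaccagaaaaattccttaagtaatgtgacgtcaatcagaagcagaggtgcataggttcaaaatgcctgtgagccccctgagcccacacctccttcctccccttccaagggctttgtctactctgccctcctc
Gzmd: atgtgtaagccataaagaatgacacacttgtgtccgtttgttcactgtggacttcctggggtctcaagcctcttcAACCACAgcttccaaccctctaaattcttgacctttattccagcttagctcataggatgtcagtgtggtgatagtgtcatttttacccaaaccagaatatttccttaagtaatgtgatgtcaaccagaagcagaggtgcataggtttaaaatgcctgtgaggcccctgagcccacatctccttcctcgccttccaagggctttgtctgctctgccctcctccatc
The Runx letters were found in all 6 windows, Gzmb included, against 5.37% of 27025 RefSeq promoter windows of the same length. The T-box core GGTGTGA, or TCACACC on the other strand, was in 0 of the 6 and in 3.96% of all windows. The windows of Gzmc to Gzmg were 87.4% to 94.3% identical over 273 to 297 aligned bases, so their matches are not independent. Gzmb aligned with them over at most 27 bases. A match describes the letters and no binding.

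The cluster RNA was concentrated in a part of the members. At least 10 Gzmc UMIs were counted in 53 of 202 mock members (26.2%) and 71 of 189 PTIR1 members (37.6%), against 2.73% and 5.87% of Itga1-zero cells. For Gzmd to Gzmg summed it was 43 mock (21.3%) and 43 PTIR1 members (22.8%), against 0.975% and 3.07%. The 5 members with the most of these 4 transcripts held 38.1% of their mock UMIs and 82.4% of their PTIR1 UMIs, where 1 cell had 5247. Gzmf was found in only 14.4% and 16.4% of members, close to the 12.7% and 11.9% of Itga1-zero cells. Its gate difference is thus one of amount in a few cells.

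**Figure D2:**
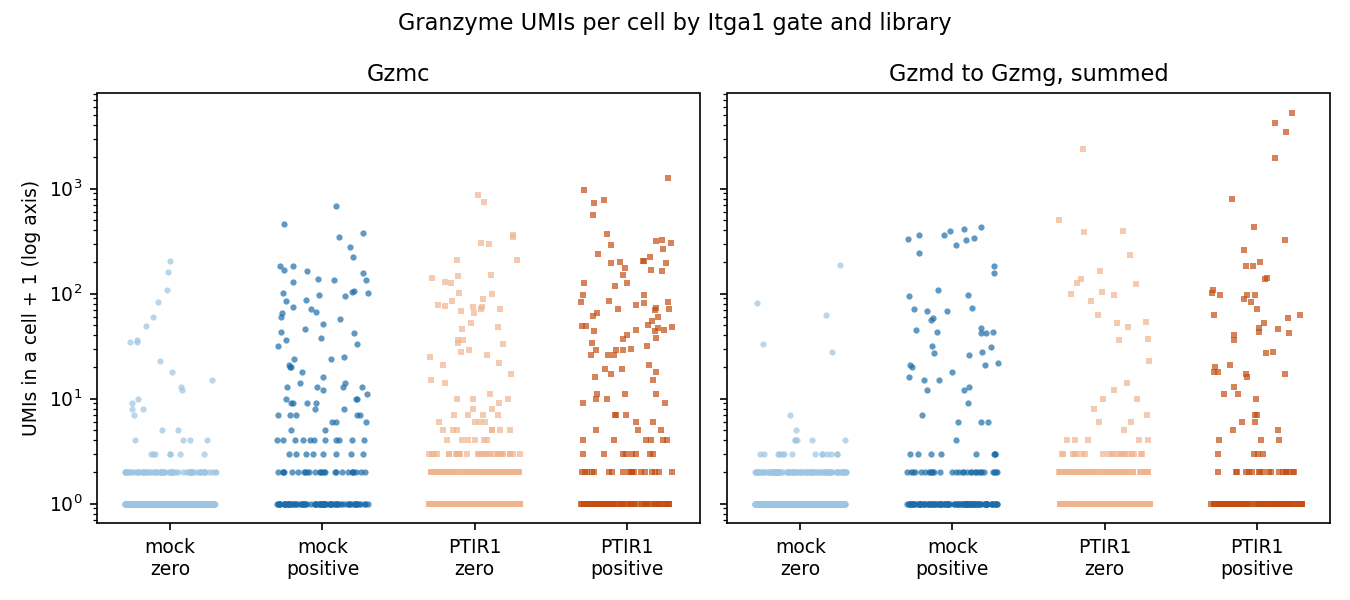
UMIs per cell plus 1 (log axis) of Gzmc and of Gzmd to Gzmg summed, 1 point per cell, in Itga1-zero and Itga1-positive cells of the mock and PTIR1 libraries. Among PTIR1 members 5 cells hold 82.4% of the Gzmd to Gzmg UMIs, and 43 members in each library have at least 10.

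Inhibitory and costimulatory receptors were higher in Itga1-positive cells. Of 16 genes tested on the checkpoint and costimulation list 10 rose and none fell, with a median log2 ratio of 0.88. Among cells with Klrd1 7 rose and 2 fell, with a median of 0.47, and 7 rose in both. Over all genes tested the shares were 9.36% and 12%, and 2.09% and 2.11% among cells with Klrd1. Klrg1, an inhibitory receptor for cadherins that stood on the NK cell list, was measured at 109 CPM in mock and 129 in PTIR1 members, against 28.0 and 28.6. Its log2 ratio was 2.14 (SE 0.10, adjusted p = 7.00e-08), and 1.63 among cells with Klrd1. Ctla4, an inhibitory receptor best known on T cells, stood at 40.0 and 68.8 CPM against 12.4 and 20.4 (log2 ratio 1.79, adjusted p = 2.60e-06). Havcr2, the inhibitory receptor TIM-3, stood at 21.3 and 24.9 CPM against 3.49 and 6.03 (log2 ratio 2.30, adjusted p = 2.73e-05). It was found in 8.91% of mock and 13.8% of PTIR1 members, and macrophages had 48.8 and 48.5 CPM. Lag3, Cd96 and Cd160, all receptors that can restrain NK cells, had log2 ratios of 1.66, 1.72 and 1.25, and Tnfrsf9, the costimulatory receptor 4-1BB, 1.21. All of these were also higher among cells with Klrd1, between 0.74 for Cd160 and 2.31 for Havcr2. Pdcd1, the receptor PD-1, was found at 3.66 and 6.85 CPM in members, and was called over all gated cells but not among cells with Klrd1. Crtam and Cd2 were lower among cells with Klrd1, at -0.97 and -0.41.

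**Figure D3:**
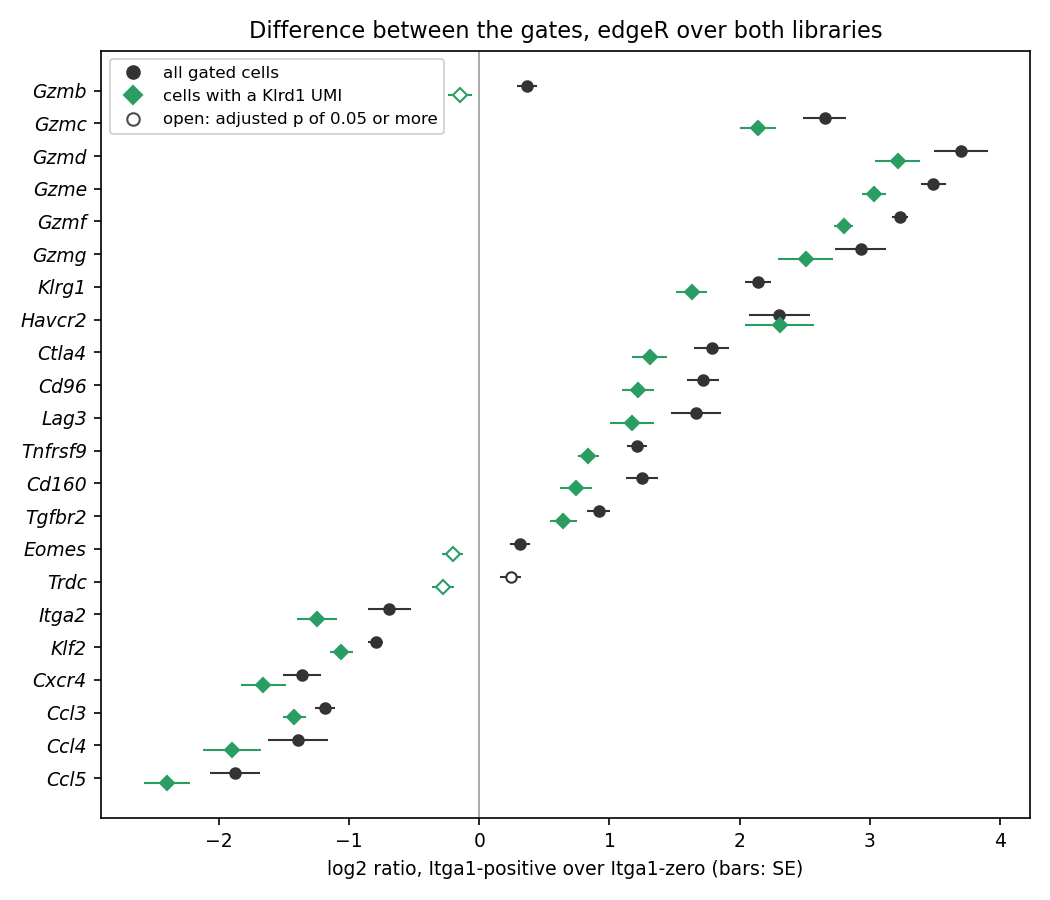
Log2 ratio of Itga1-positive over Itga1-zero cells with its SE, from edgeR over both libraries, for all gated cells (circles) and for cells with a Klrd1 UMI (diamonds); open symbols did not pass the adjusted p threshold of 0.05. The granzymes Gzmc to Gzmg lie above 2 in both comparisons and Ccl5 lies below -1.8, while Gzmb, Eomes and Trdc change side.

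Klf2, Cxcr4, Ccl3, Ccl4 and Ccl5 were lower in both comparisons. Klf2, a transcription factor of circulating lymphocytes, stood at 522 CPM in mock and 725 in PTIR1 members against 1002 and 1237 (log2 ratio -0.80, adjusted p = 2.61e-06). B cells, at 3264 and 2405 CPM, had more of it. Cxcr4, the receptor for bone marrow retention, had -1.37 and -1.66. Ccl5, a chemokine of effector lymphocytes, stood at 315 and 419 CPM against 1835 and 1057. Its log2 ratio was -1.87 (SE 0.19, adjusted p = 3.03e-05), and -2.40 among cells with Klrd1. Ccl4 and Ccl3 had -1.39 and -1.18 over all gated cells and -1.90 and -1.42 among cells with Klrd1, all called. Mock and PTIR1 cells alone gave -2.20 and -0.74 for Ccl4 and -2.54 and -1.34 for Ccl5. Ccl4 was not called with DESeq2, and neither Ccl4 nor Ccl5 was called after depth matching. Macrophages held 516 and 927 CPM of Ccl4 and 348 and 734 of Ccl3, and 75.04 and 27.7 of Ccl5. Ifng, the main cytokine of both NK cells and ILC1, stood at 66.9 and 78.4 CPM against 64.0 and 80.2 and was not called over all gated cells (0.071). Among cells with Klrd1 it was lower (-0.44). On the cytokine and chemokine list 2 of 17 genes tested rose and 6 fell, against 0 and 6 among cells with Klrd1 and 0 and 3 against depth-matched Itga1-zero cells. Over all genes tested 9.36% rose and 12% fell, and 2.09% and 2.11% among cells with Klrd1.

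Levels were also read by the number of Itga1 UMIs, as a description, since that number set the gate and goes with depth. In the mock library Gzmc stood at 214.5 CPM with no Itga1 UMI, 618.7 with 1, 1171 with 2 to 3 and 3019 with 4 or more. In the PTIR1 library it stood at 790.0, 2869, 3582 and 4001. Ccl5 went the other way, from 1835 over 726.2 and 316.7 to 82.1 CPM in the mock library and from 1057 over 697.0 and 255.4 to 115.1 in the PTIR1 library. Members with a single Itga1 UMI thus lay between the Itga1-zero cells and the members with more. Klf2 had the same order in the mock library, from 1002 down to 347.0 CPM, and stood at 1237, 765.5, 685.1 and 705.9 in the PTIR1 library. Median depth was 9896 UMIs in mock members with 1 and 17383 in those with 4 or more. The PTIR1 values were 11964 and 18663.

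**Figure D4:**
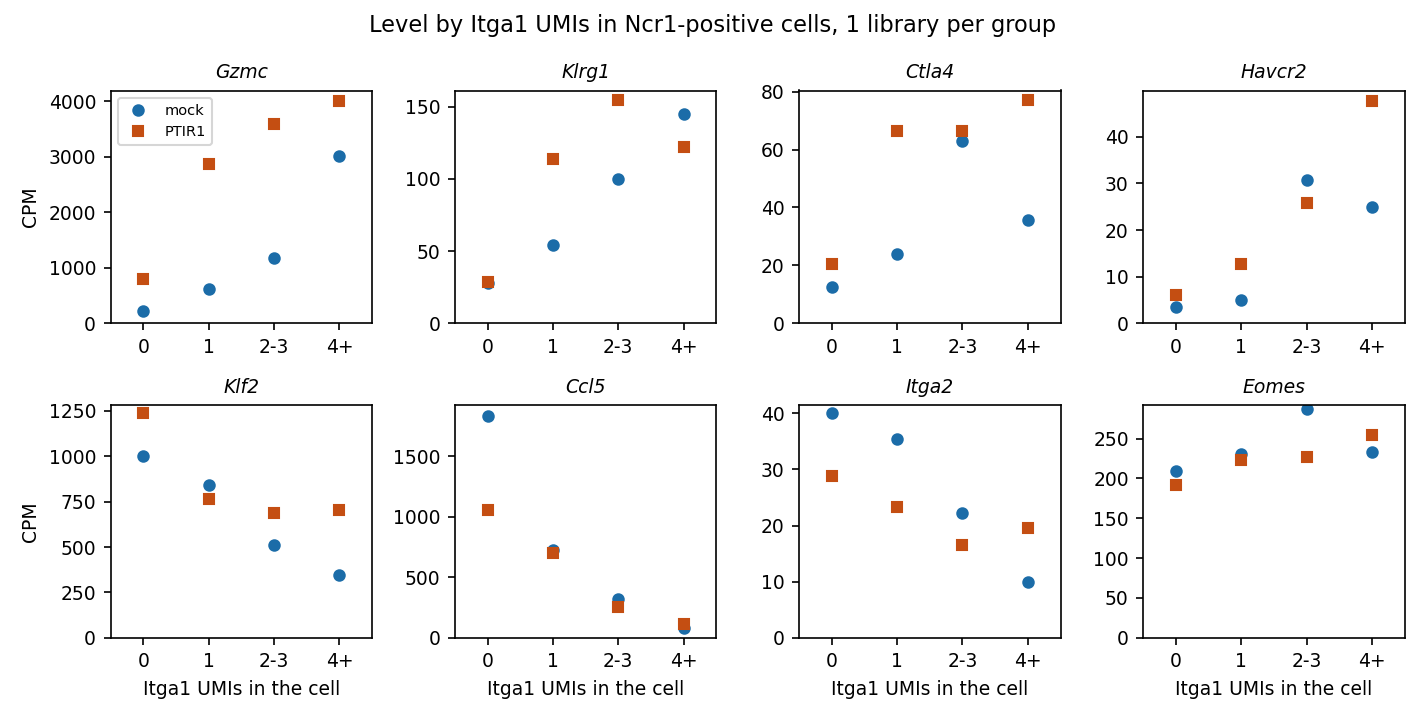
Level in CPM of summed UMIs by the number of Itga1 UMIs in the cell (0, 1, 2 to 3, 4 or more) in Ncr1-positive gated cells, 1 point per library and class. In both libraries Gzmc goes up and Ccl5 down across the 4 classes, while Eomes stays between 191.3 and 287.1 CPM.

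Among the lists of lineage and residency, directions were mixed. The shares over all genes tested, to be read beside the counts, were 9.36% higher and 12% lower. Among cells with Klrd1 they were 2.09% and 2.11%. On the ILC1 and tissue residency list 8 of 24 genes tested rose and 2 fell, and among cells with Klrd1 3 of 23 rose and 5 fell, with medians of 0.32 and 0.13. Inpp4b (1.65), Rgs1, a regulator of chemokine receptor signalling kept high in resident lymphocytes (1.12), and Cd160 rose in both. Tmem176a and Tmem176b, a pair of membrane proteins, fell in both (-1.97 and -2.18), and they were detected in 17.5% and 14.4% of PTIR1 B cells. On the conventional NK cell list 9 of 26 rose and 10 fell, against 1 and 8 among cells with Klrd1, with medians of 0.033 and -0.30. Klrg1 was the 1 member that rose in both, and 6 fell in both, among them Itga2, S1pr5, Cma1, Klf2 and Emp3. Cma1 is a mast cell protease as well. On the NK receptor and adaptor list 17 of 25 rose and none fell, and 6 rose and 1 fell among cells with Klrd1. Of 24 lineage factors tested 12 rose and 2 fell, and among cells with Klrd1 1 rose and 2 fell. Id2, which all innate lymphoid cells need, rose in both, and Id3, its counterpart in other lymphocytes, fell in both (0.85 and -2.39). Tbx21, the factor T-bet, was called over all gated cells (0.44) but not among cells with Klrd1 (-0.050).

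Beside the counts that follow, 9.36% of all genes tested rose and 12% fell, and 2.09% and 2.11% among cells with Klrd1. Of 18 genes on the TGF-beta response list 4 rose and 6 fell, and among cells with Klrd1 2 rose and 1 fell. The 2 were Ctla4 and Tgfbr2, a receptor chain for TGF-beta, at 125 and 125 CPM against 66.4 and 71.5 (log2 ratio 0.92, adjusted p = 2.27e-05). Smad3, which carries the signal to the nucleus, was the 1 that fell. Smad7, its feedback inhibitor, was not called (0.17 and -0.15). The median log2 ratio of the list was -0.047 and -0.041. Of 16 immediate early and stress genes 1 rose and 9 fell, against 0 and 7 among cells with Klrd1, with medians of -0.49 and -0.39. Fos and Dusp1 fell in both. Of 18 cell cycle genes 7 rose and none fell, against 8 and none among cells with Klrd1. Only 4 rose in both, and 1 of 18 rose against depth-matched Itga1-zero cells. Mki67, a marker of cycling cells, stood at 225 and 217 CPM against 154 and 143 (log2 ratio 0.63, not called after depth matching or thinning), and was found in 29.7% and 27.5% of members. Of the 5 immunoproteasome genes Psmb8 and Psmb9 rose over all gated cells and none was called among cells with Klrd1.

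Members without an Eomes UMI, 46 from mock and 38 from PTIR1, were examined for the ILC1 pattern. They were shallower, with medians of 7682.5 and 7311 UMIs against 15021 and 16287, and no test was made between them. Klrd1 was found in 69.6% of mock and 65.8% of PTIR1 members without Eomes, against 95.5% and 98.0% of those with it. By level, Klrd1 was lower without Eomes in mock (437.6 against 618.6 CPM) and higher in PTIR1 (697.3 against 589.9 CPM). Il7r was found in 30.4% of members without Eomes and 3.85% of Eomes-positive members in mock, and in 10.5% and 7.28% in PTIR1. In the same order, Cxcr6 was found in 10.9% and 7.69% in mock, and in 10.5% and 7.95% in PTIR1. Tnfsf10 was found in fewer members without Eomes, 19.6% against 34.0% in mock and 13.2% against 21.2% in PTIR1. Its level was higher without Eomes, at 41.3 against 31.6 CPM in mock and 36.2 against 14.6 in PTIR1. Trdc stood at 43.8 against 191.4 CPM in mock cells and at 132.8 against 238.0 in PTIR1 cells. Gzmc stood at 213.9 against 2153 and 1210 against 3608 CPM, and Klrg1 at 21.9 against 122.7 and 27.2 against 141.2 CPM. These 3 genes were lower without Eomes in both libraries. Perforin was still found in 65.2% and 78.9% of the cells without Eomes. Cells without both Eomes and Itga2 numbered 42 mock (20.8%) and 29 PTIR1 members (15.3%), and 15 and 5 of these had Il7r or Cxcr6. Among the Eomes-positive members, 17 of 156 mock and 23 of 151 PTIR1 cells had Il7r or Cxcr6.

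Between the PTIR1 and mock members, 8132 genes had at least 50 UMIs over both sums. Of these 257 were higher in PTIR1 by 1.5-fold or more (3.16%) and 339 lower (4.17%), with a median log2 ratio of -0.058. The genes ranked first included transcripts of other cell types, among them Mgp, Dcn and Igkc higher and Tpsb2, Mcpt4, Cpa3 and S100a9 lower. Igkc, an antibody light chain of B cells, stood at 17.7 CPM in mock and 173 in PTIR1 members, and 5 cells held 94.2% of its PTIR1 UMIs. All 8 B cell markers were above 0 in the members of both libraries, at a sum of 83.6 in mock and 287.9 CPM in PTIR1. The neutrophil list, at 270.4 and 95.2 CPM, had 2 of 8 at 0 in mock members. Their part in the single genes was not tested.

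The cytotoxic genes were mostly higher in the PTIR1 members. Of 18 measured on the cytotoxic granule and death ligand list 8 were past 1.5-fold higher and 1 lower, with a median log2 ratio of 0.37. Among all 8132 genes the shares past the fold were 3.16% and 4.17%, and the median was -0.058. Gzmc was 1.78-fold higher (1.72 to 1.84) and Gzmf 6.89-fold (6.48 to 7.33). Without the 5 members highest in each library, Gzmc stood at 1233 CPM in mock and 2173 in PTIR1. Gzmd to Gzmg summed stood at 1715 and 5935 CPM with all members, and at 1098 and 1099 without those 5. The PTIR1 excess of these 4 granzymes thus lay in 5 cells, and the list count above was made with all members. Serpinb9b, a serine protease inhibitor, stood at 58.9 CPM in mock and 219 in PTIR1 (3.71-fold, 3.14 to 4.40). It was found in 24.3% and 45.5% of members. Serpinb9 and Serpinb6b, its relatives, were 1.51-fold and 1.63-fold higher. Tnfsf10 was the 1 gene of the list past the fold in the other direction, at 33.0 CPM in mock and 16.8 in PTIR1, 1.96-fold higher in mock (1.39 to 2.79).

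Eomes and Itga2 differed little between the libraries. The PTIR1 over mock ratio was 0.936 for Eomes (0.844 to 1.04) and 1.01 for Itga2 (0.702 to 1.46). For Trdc it was 1.33 (1.18 to 1.49), and thinned to 1000 UMIs its log2 ratio turned to -0.042. The immunoproteasome subunit Psmb8 had a ratio of 0.968 (0.913 to 1.03), Psmb9 0.912 (0.838 to 0.993) and Psmb10 0.964 (0.867 to 1.07). None of the 5 immunoproteasome genes was past 1.5-fold, and the ratio was below 1 for all 5, as it was for 4857 of all 8132 genes. The list median of -0.052 lay beside -0.058 for all genes, and Psmb9 turned to a log2 ratio of 0.072 when thinned. Of 15 interferon gamma response genes measured 1 was past the fold higher and 1 lower, against 3.16% and 4.17% of all genes. Rsad2, an antiviral gene of the type I interferon response, was 3.41-fold higher in mock (2.70 to 4.34), and 5 mock members held 87.9% of its UMIs there. Of 16 immediate early and stress genes 8 were past the fold higher in PTIR1 and none lower, with a median log2 ratio of 0.55. This was not particular to the members. The list summed to 4331 CPM in mock and 5462 in PTIR1 members, and to 5519 and 8154 in Itga1-zero cells. In macrophages it summed to 7318.5 and 12275 CPM, and in B cells to 12475 and 11680. Dusp1 stood at 253 CPM in mock and 394 in PTIR1 members, and Nr4a1, induced by receptor signalling and by handling of cells, at 46.6 and 105. Ccl4 was 2.54-fold higher in PTIR1 (2.33 to 2.77) and Ctla4 1.72-fold (1.37 to 2.17).

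**Figure D5:**
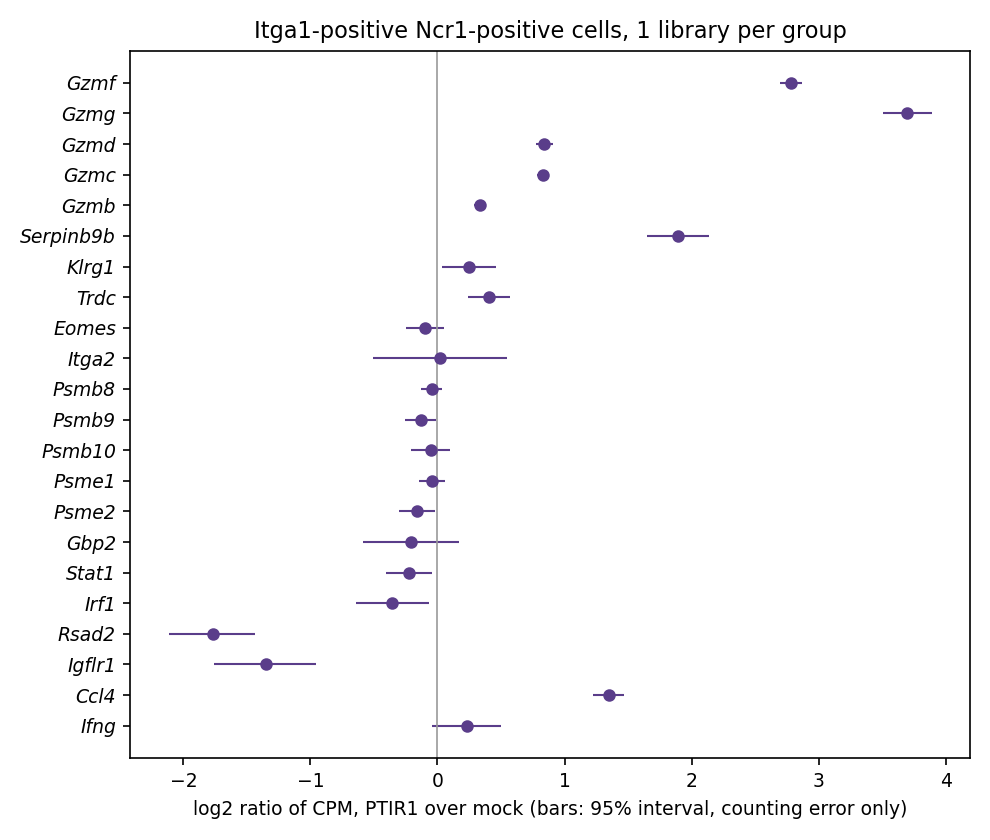
Log2 ratio of CPM, PTIR1 over mock, in Itga1-positive Ncr1-positive cells for 22 genes; bars are exact 95% intervals of counting error only, with 1 library per group. Gzmf, Gzmg and Serpinb9b lie to the right, Rsad2 and Igflr1 to the left, and the immunoproteasome genes close to 0.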

How the data were processed

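Cells of mock and PTIR1 tumours were measured in 1 library each, 10833 and 9006 barcodes. Per the file headers, the deposited matrices hold unnormalized UMI counts from Cell Ranger 5.0.0, with the build mm10 and Seurat 3.2.3 named in the submitters' processing notes. Which gene annotation was used is not given in the sources used here. No row among the 32285 genes is named PTIR1, so the labels were not checked with it.

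The members and the 28 gene lists were chosen with earlier results of these data known. Some genes that the lists count are not reported here by name. UMIs were summed per gate and library. Gates were compared with edgeR 4.0.16 (R 4.3.3; quasi-likelihood, TMM, library as block, genes with at least 20 UMIs over the 4 sums, adjusted p under 0.05). PTIR1 over mock had no test: ratios of CPM carry exact 95% intervals, and called means past 1.5-fold with at least 50 UMIs. The gate p-values set the mean gate difference against its variation between the 2 libraries, which are of different groups. A small p-value therefore does not show that both libraries had a like ratio. The variation between the libraries rests on 1 residual degree of freedom and is shrunk across genes by edgeR. It is not variation between replicates. Genes were named from the lists or, beyond them, by rank: per direction 15 for the gates (a UMI in at least 5% of cells) and 10 for PTIR1 over mock (10% of cells), by the interval end nearest to 1. DESeq2 1.42.0, scanpy 1.11.5, scipy 1.17.1, matplotlib 3.10.9, pandas 2.3.3 and numpy 2.4.6 under Python 3.11.15 were also used. Scrublet called 0 of 9328 mock and 67 of 7567 PTIR1 barcodes as doublets, so it did not work in the mock library and none were removed. An alternative removed the 696 and 458 highest scores. On simulated counts the gate test called 5 unchanged genes of 12167 tested (0.0418% of the unchanged). It recovered 49.3% of genes changed 1.5-fold, 82.1% at 2-fold and 98.5% at 4-fold. The changed genes were drawn only from genes well above the minimum of 20 UMIs, so recovery near that minimum was not simulated. The simulation gave all genes 1 dispersion (0.005483) and the same change in both libraries. Gate differences that vary between libraries or rest on a few cells were not simulated, so these rates may not hold here. Alternatives are given in the closing section. Of these, Klrd1 at least 1 and Ncr1 at least 2 in both gates were chosen after seeing the data. Promoter sequences came from RefSeq and gene positions from GENCODE vM21, where 12 of 12 identifiers looked up carried the same symbol.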

Additional observations from a re-analysis of the deposited data

Results flagged for a closer look

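For 4 of the genes examined, the ratio of Itga1-positive over Itga1-zero cells lay on opposite sides of 1 in the mock and PTIR1 libraries, with the counting interval of each ratio excluding 1. With 1 library on each side, these differences were not tested. Il7r had a ratio of 0.514 in mock and 1.65 in PTIR1 cells. Serpinb9b had 0.578 in mock and 1.48 in PTIR1 cells. For Ccl7, a monocyte chemokine, the ratio was 0.575 in mock and 1.87 in PTIR1 cells. For S100a9, a neutrophil gene, it was 1.65 in mock and 0.0420 in PTIR1 cells.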

How the results depend on the processing

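Counts of calls moved with the processing. Of 1138 higher and 1457 lower genes, DESeq2 called 212 and 386, the fit with no replicate block 328 and 465, and depth-matched Itga1-zero cells 131 and 360. A mitochondrial limit of 5% gave 423 and 598, thinning to 1000 UMIs 109 and 161, Klrd1 in both gates 239 and 242, and Ncr1 at least 2 in both gates 193 and 205. Thinning and depth matching leave fewer UMIs by construction. For the other settings the cause was not tested.

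The Eomes ratio (log2 0.32) was no longer called with DESeq2 (0.32), no replicate block (0.32), depth matching (0.14), a 5% limit (0.076) or thinning (0.39), and was reversed with Klrd1 (-0.20) and Ncr1 at least 2 (-0.14). Each library alone gave 0.24 to 0.27. Itga2 (-0.69) was not called with DESeq2 (-0.69), no replicate block (-0.70), depth matching (-0.61) or thinning (-0.86), and each library alone gave -0.99998 to -0.51. Trdc (0.24, not called) was reversed with depth matching (-0.0090), a 5% limit (-0.0088), thinning (-0.21), Klrd1 (-0.28) and Ncr1 at least 2 (-0.23). It was called with Itga1 at least 2 (0.32), with Cd3d, Cd3g and Cd8a at 0 (0.37), with Csf1r and Adgre1 at 0 (0.34) and without the highest doublet scores (0.30). Each library alone gave 0.16 to 0.20.

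The mock share was 6.43% thinned, 17.6% with Itga1 at least 2 and 34.5% from 2000 UMIs. The PTIR1 share was 3.31% thinned and 10.6% with Itga1 at least 2. Genes past 1.5-fold between the libraries were 52 higher and 50 lower thinned, and 446 and 615 with each cell weighing the same. Trdc, PTIR1 over mock, turned to -0.042 thinned.

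Single genes turned as follows (log2). In the gate ratio with Klrd1 and with Ncr1 at least 2, in that order, Gzmb had -0.15 and -0.078, Tbx21 -0.050 and -0.014, Serpinb9 -0.12 and -0.063, Serpinb6b -0.10 and -0.00865, and Igkc 0.070 and 0.55. Klrd1 itself had -0.019 with Klrd1 in both gates. Thinned, Tbx21 had -0.039, Tnfsf10 -0.27 and Cd3g -0.70. For PTIR1 over mock, thinning turned Timp1 (0.096), Il7r (-1.90), Cd3g (-0.75), Psmb9 (0.072) and Tmem176a (-0.056). Without the highest doublet scores S100a9 had 0.074, Il7r -0.54, Tmem176a -0.35 and Tmem176b -0.089. With Csf1r and Adgre1 at 0, Il7r had -0.35 and Ccl3 -0.49. With Itga1 at least 2, Gzma had -0.025 and Ccl3 -0.35, and with equal cell weights Il7r had -0.45.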
